A study of Mus musculus with 224 samples.

Results

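Hippocampal (HPC) gene expression was compared between ethanol-drinking mice that had inhaled ethanol vapor and ethanol-drinking mice that had inhaled air. The arrays were chosen by their labels, hippocampus and ethanol drinker, and came to 23 of the 42 HPC arrays and of 224 arrays in all. The CIE Drinking group (chronic intermittent ethanol vapor) held 12 arrays and the Air Drinking group 11, each from a different mouse. A further 11 CIE NonDrinking and 8 Air NonDrinking arrays, from mice that had water only, shared the estimate of the spread. The fit took this spread as equal in all groups.

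All mice were male C57BL/6J, bought at 10 weeks of age, and none carried a transgene by the labels. They spent 4 cycles of 4 days in vapor or air chambers, for 16 h each day. Before a session CIE mice received ethanol at 1.6 g/kg together with pyrazole, which slows ethanol breakdown, at 1 mmol/kg, and air mice received saline and the same pyrazole. Chamber air held 10 to 13 mg/l ethanol for the CIE groups. Both drinking groups had a choice of 15% (v/v) ethanol or water for 2 h a day, after 6 weeks of baseline drinking and after 72 h of abstinence following each vapor cycle. Air Drinking mice were therefore not ethanol-naïve, and the drinking groups differ by vapor and ethanol injection together. They also differ in oral intake, since the paper reports that CIE Drinking mice drank more ethanol than Air Drinking mice after most vapor cycles. Vapor, injection and the higher intake cannot be told apart here. Intake of single mice was not analysed here.

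The hippocampus encodes contextual and spatial memory, including memory for places and cues paired with a drug. Its main circuit runs from granule neurons of the dentate gyrus through CA3 to CA1 pyramidal neurons, under control of GABAergic interneurons. Ethanol acts there on GABA-A and NMDA receptors, and repeated exposure and withdrawal are known to alter synaptic plasticity and adult neurogenesis. Whole hippocampal tissue was assayed, so that fewer cells of a type and less RNA per cell cannot be told apart.

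Hippocampal markers were present. Averaged over arrays, the log2 expression values of Prox1 (dentate granule neurons) were 9.84 in the HPC and 6.65 to 7.90 in the other regions, those of C1ql2 10.7 and 4.42 to 6.32, and those of Fibcd1 (CA1) 8.76 and 4.91 to 7.25. Wfs1, another CA1 marker, was at 10.5 and was higher in the nucleus accumbens (NAC, 12.2), the central amygdala (CeA, 10.8) and the stria terminalis bed nucleus (BNST, 10.7). Genes of neighbouring tissue were also read. Of the choroid plexus genes, Folr1 was at 5.07, but Ttr was at 10.65, above the prefrontal cortex (PFC, 9.95), the NAC (9.11) and the BNST (9.16) and below the CeA (14.5), and it ranged from 8.36 to 12.9 in the Air Drinking arrays and from 9.38 to 12.2 in the CIE Drinking arrays. Prkcd and Tcf7l2, genes of the thalamus, were at 8.05 and 7.67, and the striatal gene Drd1 at 8.70. Prkcd had a log2 fold change of -0.68 between the drinking groups (adjusted p = 0.0696), and the part of such tissue in other results was not tested. Regions were normalized separately, which limits these comparisons of level. None of these markers differed between CIE Drinking and Air Drinking arrays at an adjusted p of 0.01 in LIMMA.

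One set of arrays stood apart within the Air Drinking group. The 6 arrays of mouse numbers 24 to 32 lay between 0.43 and 18.6 on the second principal component of all HPC probesets, which held 16.2% of the variance, and the CIE Drinking arrays lay between 3.61 and 24.7. The 5 Air Drinking arrays of mouse numbers 57 to 62 lay between -30.3 and -16.4, with no overlap with either. Those of the nondrinking groups reached into that range, from -22.2 to 0.03 in the Air NonDrinking and from -18.8 to 12.5 in the CIE NonDrinking arrays. The labels give no reason for the gap in numbering, and no CIE Drinking array has a number in that range, so that in these mice the air treatment and anything that goes with the numbers cannot be told apart. Medians of the arrays' log2 values were close, 6.89 to 6.91 for mouse numbers 57 to 62 and 6.89 to 6.95 in the CIE Drinking group. The split was noticed after the values were seen, and values without these 5 arrays stand beside the results that turn on them.

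More probesets were higher than lower in CIE Drinking mice, an excess that was much smaller when counted once per gene, as given below. LIMMA called 549 of 44463 probesets (1.23%) at an adjusted p of 0.01 or less, 481 higher (1.08%) and 68 lower (0.153%) in the CIE Drinking group. A probeset is a group of short probes that reads a stretch of a transcript, usually near its 3′ end, and a gene may have several. The raised probesets had a median log2 fold change of 0.46 (0.15 to 0.93), and the lowered probesets one of -0.18 (-0.63 to -0.10), beside -0.01 over all probesets. The raised probesets with a single gene symbol came from 359 genes and the lowered from 56.

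These calls depended on the 5 arrays and on the nondrinking groups. Without mouse numbers 57 to 62, LIMMA called 0 probesets at an adjusted p of 0.01 and 0 at 0.05, and 3331 had an unadjusted p under 0.05, beside 8077 with all arrays. No gene or list member described below was thus called in that fit, which had 6 Air Drinking arrays in place of 11. With only both drinking groups in the fit, 0 probesets were called at 0.01, 919 at 0.05, and 7587 had an unadjusted p under 0.05. Without mouse numbers 24 to 32 instead, 3041 probesets were called (6.84%), 2567 of them higher. The spread was not equal between groups for rises such as that of Atrx. The SD of the Atrx log2 values was 0.80 in Air Drinking and 0.14 in CIE Drinking arrays. It was 0.34 in CIE NonDrinking and 0.15 in Air NonDrinking arrays. For such rises the SE and adjusted p with all arrays, which rest on a shared spread, may understate the uncertainty.

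The raised and the lowered probesets behaved differently when mouse numbers 57 to 62 were left out. All 481 and all 68 kept the sign of their log2 fold change. The median of the new log2 fold change over the old was 0.376 for raised probesets, of which 8 kept at least 0.8 of their size, and 0.803 for lowered probesets, of which 37 did. An unadjusted p under 0.05 remained for 288 of the 481 and for 68 of the 68. These arrays had chosen the probesets, so the counts are a description.

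**Figure D1:**
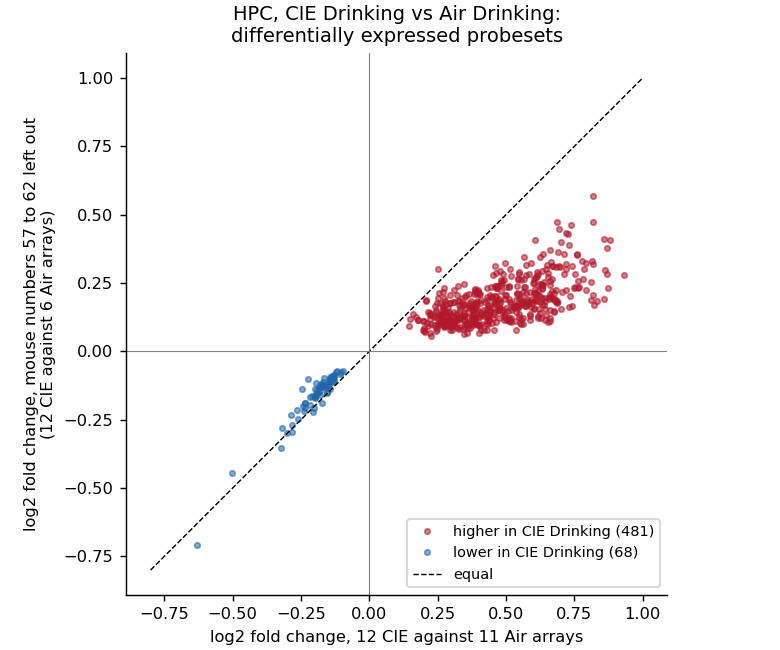
Log2 fold change (CIE Drinking minus Air Drinking) of the 549 differentially expressed HPC probesets, with all 23 arrays on the x axis and without the 5 Air Drinking arrays of mouse numbers 57 to 62 on the y axis. Lowered probesets (blue, 68) lie near the dashed line of equal values, with a median ratio of 0.803, while raised probesets (red, 481) lie below it, with a median ratio of 0.376.

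The 15 largest rises with a single gene symbol are taken up by the known role of each gene, and no theme among them was tested. Cacna2d1, with the largest rise, encodes the alpha2delta-1 subunit of voltage-gated calcium channels, which is also the binding site of gabapentin. Its log2 expression value was lowest at 10.68, at a median of 11.01 and highest at 11.29 in the CIE Drinking arrays, and 9.10, 10.19 and 10.92 in the Air Drinking arrays. The Air Drinking arrays of mouse numbers 57 to 62 held its lowest values, 9.10 to 10.05, and 9 of 12 CIE Drinking arrays lay above every Air Drinking array. Cacna2d1 rose by 0.88 on the log2 scale (SE 0.17, adjusted p = 0.00206 in LIMMA), and by 0.41 (SE 0.15, adjusted p = 0.664) without mouse numbers 57 to 62. Atp2b2, the plasma membrane calcium pump PMCA2, had log2 values of 10.25, 10.38 and 10.52 in the CIE Drinking group and 8.37, 9.76 and 10.42 in the Air Drinking group. The groups overlapped only through mouse numbers 24 to 32, which reached 10.42, while mouse numbers 57 to 62 reached 9.11. Its log2 fold change was 0.83 (SE 0.17, adjusted p = 0.00357), or 0.18 (SE 0.09, adjusted p = 0.664) without the latter.

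Of genes with a role in chromatin or transcription, Atrx, Bptf, Tbl1x, Zbtb7a and Tlk1 were among these 15. Atrx, a SWI/SNF-type remodeler that deposits histone H3.3 and is mutated in an X-linked intellectual disability syndrome, had log2 values of 8.77, 9.05 and 9.21 in the CIE Drinking group and 6.92, 8.42 and 9.09 in the Air Drinking group. Mouse numbers 57 to 62 lay between 6.92 and 7.56 and mouse numbers 24 to 32 between 8.42 and 9.09, so that only the former were apart from CIE Drinking arrays. The log2 fold change of Atrx was 0.86 (SE 0.18, adjusted p = 0.00435), or 0.19 (SE 0.11, adjusted p = 0.681) without mouse numbers 57 to 62. Bptf, the largest subunit of the NURF remodeling complex, had log2 values of 8.16, 8.23 and 8.50 against 6.36, 7.67 and 8.24 and rose by 0.86 (SE 0.16, adjusted p = 0.00193), or had 0.30 (SE 0.11, adjusted p = 0.664) without those arrays. Tbl1x, a component of the NCoR corepressor complex, rose by 0.82 (SE 0.12, adjusted p = 0.000307). Without mouse numbers 57 to 62 the log2 fold change of Tbl1x was 0.57 (SE 0.14, adjusted p = 0.543), which was the largest value among the 20 named rises. Zbtb7a, a zinc finger repressor, and Tlk1, a kinase of the histone chaperone ASF1, both rose by 0.81, and had 0.25 and 0.33 without the 5 arrays. Of the Tlk1 values, those of 10 of 12 CIE Drinking arrays lay above every Air Drinking array.

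The other named rises of this size had log2 fold changes of 0.79 to 0.87. Wdfy3, a scaffold of selective autophagy, had log2 values of 9.90, 10.28 and 10.50 in the CIE Drinking group and 8.51, 9.45 and 10.22 in the Air Drinking group. It rose by 0.86 (SE 0.14, adjusted p = 0.000618), or 0.41 (SE 0.10, adjusted p = 0.552) without mouse numbers 57 to 62. The others were Rufy2, an endosomal adaptor (0.87), Akap9, a scaffold of protein kinase A at the Golgi and centrosome (0.82), Rhobtb3, a Golgi-associated ATPase (0.82), Mbnl1, a regulator of alternative splicing (0.81), Pcmtd1 (0.79) and A930009L07Rik, a noncoding transcript (0.82). The log2 fold changes of these 6 genes were 0.19 to 0.47, at adjusted p-values of 0.664 to 0.681, with the 5 arrays left out. Gad2, which encodes the GABA-synthesizing enzyme GAD65, had log2 values of 8.56, 9.05 and 9.35 against 7.22, 8.53 and 9.03 and rose by 0.79 (SE 0.16, adjusted p = 0.00357), or had 0.22 (SE 0.12, adjusted p = 0.668) with the 5 arrays left out. Mouse numbers 24 to 32 lay within the CIE Drinking range or just under it for Gad2, 8.53 to 9.03, and mouse numbers 57 to 62 lay below it, 7.22 to 7.84.

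**Figure D2:**
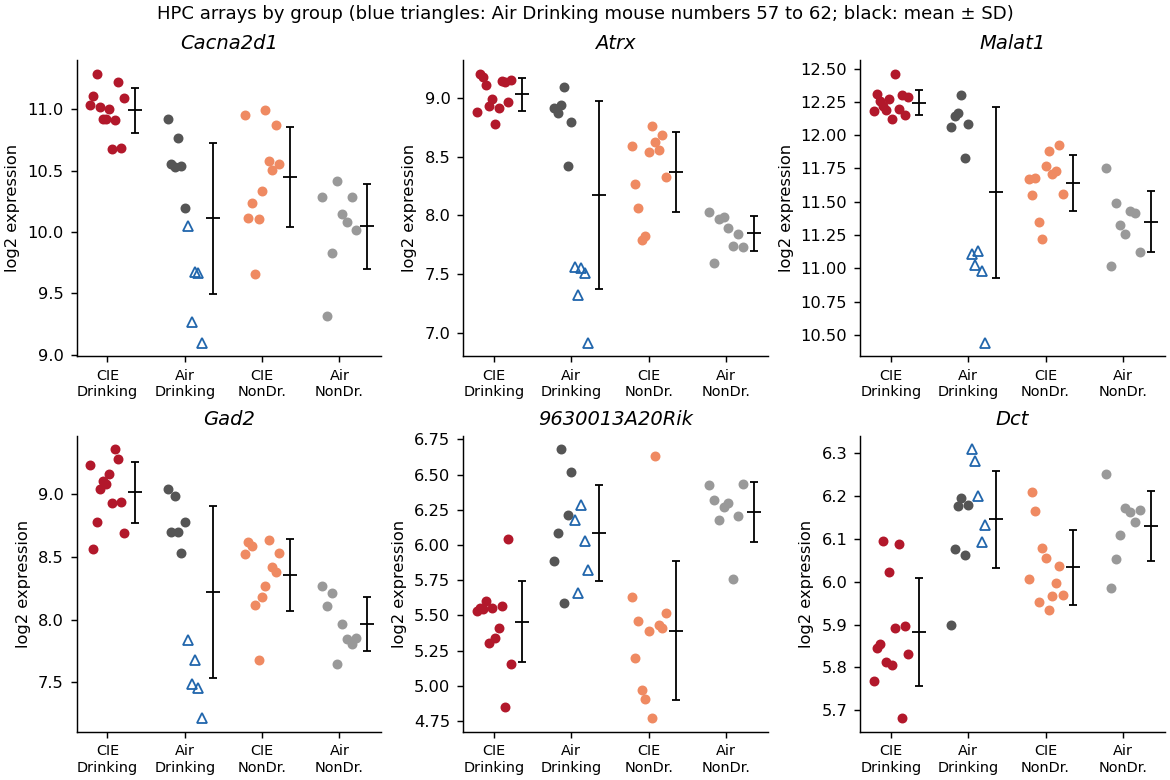
Log2 expression of 6 named genes in every HPC array, by treatment group, with the mean ± SD in black and the Air Drinking arrays of mouse numbers 57 to 62 as blue triangles. For Cacna2d1, Atrx, Malat1 and Gad2 these triangles are the lowest of the Air Drinking values, while for 9630013A20Rik and Dct they lie among or above the other Air Drinking arrays.

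The falls were smaller than the rises, and all but that of 9630013A20Rik were at most 0.32 in size. 9630013A20Rik is a noncoding RNA known from newly formed oligodendrocytes. Its log2 values were 4.85, 5.54 and 6.04 in the CIE Drinking arrays and 5.59, 6.08 and 6.68 in the Air Drinking arrays. 10 of 12 CIE Drinking arrays lay below every Air Drinking array, and mouse numbers 57 to 62, at 5.66 to 6.28, lay within the range of mouse numbers 24 to 32, at 5.59 to 6.68. Its log2 fold change was -0.63 (SE 0.14, adjusted p = 0.00709), and -0.71 (SE 0.17, adjusted p = 0.543) without mouse numbers 57 to 62. All 3 of its probesets were lower, the others by -0.50 (adjusted p = 0.00941) and -0.28 (adjusted p = 0.0111), at mean log2 levels of 4.25 and 4.42. Its level was low on these arrays, under the 6.17 below which probesets were taken as dim, as were those of 6 other named genes, Atf3, Araf, Rgn, Dct, Bora and Tbl1x. Other genes of newly formed oligodendrocytes, looked up after this value was seen, did not pass: Enpp6 had a log2 fold change of -0.08 (adjusted p = 0.622), Gpr17 of -0.01 (adjusted p = 0.972) and Bmp4 of -0.03 (adjusted p = 0.873).

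Atf3, a transcription factor induced by cell stress and axon injury, had log2 values of 5.61, 5.75 and 6.21 in the CIE Drinking group and 5.67, 6.21 and 6.41 in the Air Drinking group. Its ranges overlapped, with 11 of 12 CIE Drinking arrays below the Air Drinking mean. It fell by 0.32 on the log2 scale (SE 0.07, adjusted p = 0.00701), and its log2 fold change was -0.35 (SE 0.09, adjusted p = 0.543) without mouse numbers 57 to 62. Spx encodes the neuropeptide spexin. Its log2 values were 6.33, 6.54 and 6.85 against 6.55, 6.83 and 7.05. The difference was -0.30 (SE 0.06, adjusted p = 0.00455) and also -0.30 (SE 0.08, adjusted p = 0.591) without those arrays. Dct, dopachrome tautomerase, had log2 values of 5.68, 5.85 and 6.10 against 5.90, 6.18 and 6.31, and 9 of 12 CIE Drinking arrays lay below every Air Drinking array. Its log2 fold change was -0.26 (SE 0.04, adjusted p = 0.00128), or -0.22 (SE 0.05, adjusted p = 0.543).

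The remaining named falls had log2 fold changes of -0.29 to -0.24. They were Araf, a RAF kinase of the MAP kinase cascade (-0.29), Aak1, a kinase of the clathrin adaptor AP-2 (-0.28), Rgn, the calcium-binding protein regucalcin (-0.28), Bora, an activator of Aurora A (-0.26), Atg5, required for autophagosome formation (-0.25), and Rsrc1, a splicing factor (-0.24). Atg5 moved most among these 6 when mouse numbers 57 to 62 were left out, to -0.14 (SE 0.04), and the others had -0.29 to -0.22. In Atg5 the 2 other probesets had log2 fold changes of 0.08 and 0.08, opposite in sign to the called probeset. Of the 10 named falls, only Atf3, Spx, Rgn and Dct had a single probeset on the array.

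**Figure D3:**
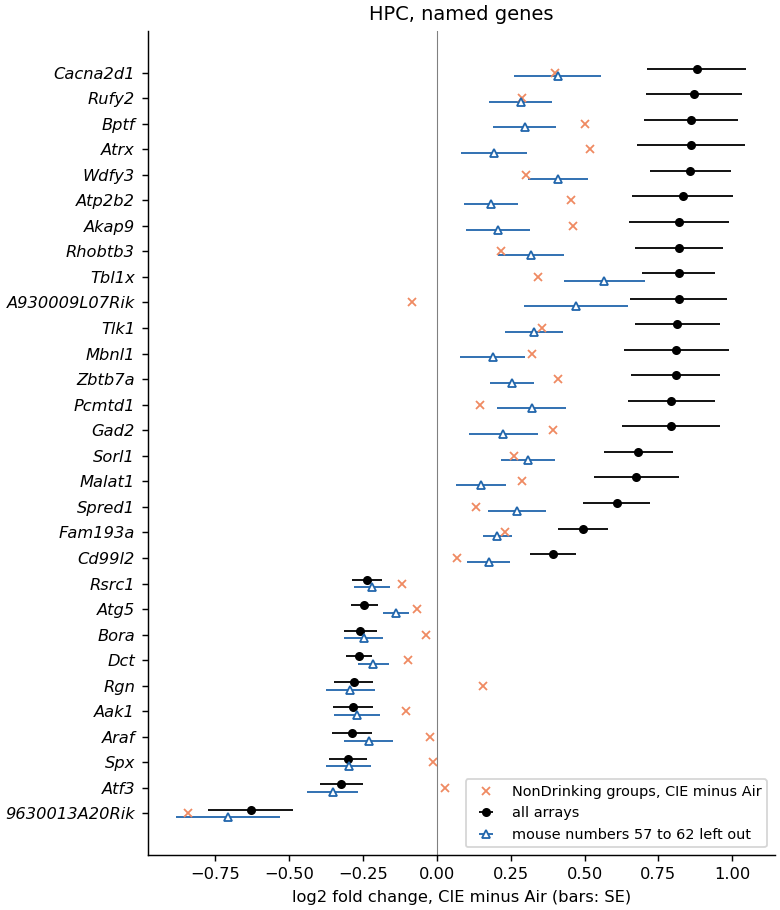
Log2 fold change (CIE minus Air, bars are SE) of the 30 named genes in drinking mice with all HPC arrays (black) and without mouse numbers 57 to 62 (blue), and in nondrinking mice (orange crosses). Rises shrink from between 0.39 and 0.88 to between 0.15 and 0.57 without these arrays, whereas most falls stay within 1 SE of their value.

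Raised probesets were often not the main probeset of their gene. Among the 391 that came from a gene with several probesets, 30 (7.67%) were the one with the highest mean level, against 35.1% of all such probesets tested and 18 of 44 (40.9%) lowered ones. The 941 other, uncalled probesets of the raised genes had a median log2 fold change of 0.00, and 479 of them were above 0. Atrx is an example. Its 3 called probesets of 7 rose by 0.75 to 0.86, while its brightest, at a mean log2 level of 12.1, had a log2 fold change of -0.04 (adjusted p = 0.57). Bptf rose at 1 probeset of 4, and its brightest, at 12.2, had -0.04 (adjusted p = 0.536). For Gad2 the brighter probeset, at 10.95, had 0.01 (adjusted p = 0.939), and for Cacna2d1 the brightest, at 12.1, had -0.07 (adjusted p = 0.33). Zbtb7a alone of the 15 largest rises was called at its brightest probeset. What the differing probesets read was not tested, since no probe positions were used here.

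Genes with several called probesets were Atrx, Fam193a, Cd99l2, Malat1 and Rhobtb3, with 3 each, and Tbl1x, Sorl1 and Spred1 among those with 2. Malat1, an abundant nuclear noncoding RNA, had log2 values of 12.12, 12.24 and 12.46 in the CIE Drinking group and 10.44, 11.83 and 12.30 in the Air Drinking group at the probeset with the largest change. Mouse numbers 57 to 62 lay between 10.44 and 11.13, below all other drinking arrays. The log2 fold change of Malat1 was 0.68 (SE 0.15, adjusted p = 0.00475), or 0.15 (SE 0.09, adjusted p = 0.681) without them. Its 7 probesets were split, 3 called at 0.60 to 0.68 and another at -0.11 (adjusted p = 0.25). Sorl1, a sorting receptor for the amyloid precursor protein, rose by 0.68 (SE 0.12, adjusted p = 0.00131) and Spred1, an inhibitor of RAS-MAP kinase signaling, by 0.61 (SE 0.11, adjusted p = 0.00195). These became 0.31 and 0.27 when the 5 arrays were left out.

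Genes with raised probesets spanned more of the genome. Their median span in the GRCm38.p6 annotation of RefSeq was 60.3 kb (356 genes with a span), against 29.7 kb for lowered genes (56 genes) and 20.3 kb for all genes tested (18017 genes). The spans are given as a description with no test. Only 4 probesets (0.009% of those tested), singled out after their values were seen, had no overlap between the 12 CIE Drinking and 11 Air Drinking arrays, and all 4 were higher in CIE Drinking mice. They belonged to Taok1, a MAP kinase kinase kinase (log2 fold change 0.55, SE 0.11), the zinc finger gene Zfp91 (0.60, SE 0.10), Wnk1, a kinase that controls chloride transport (0.56, SE 0.11), and Alkbh5, an RNA N6-methyladenosine demethylase (0.32, SE 0.06). With the 5 arrays left out, their log2 fold changes were 0.19, 0.25, 0.22 and 0.13, at an adjusted p of 0.664 each.

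Counted once per gene, by the probeset with the highest mean, 72 of 18064 genes (0.399%) were called, 41 higher and 31 lower, so that the excess of rises was much smaller. The median log2 fold change over genes was -0.02 and 38.0% of genes were above 0. The gene lists below are read against these values and, for probesets, against 1.23%.

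Chromatin remodeling genes had the largest share of called probesets among the lists, 13 of 101 (12.9%), of which 11 were higher and 2 lower. They came from 11 of the 36 genes measured, and 0 of the 36 were called at their brightest probeset, where the median log2 fold change was -0.02 with 14 above 0. Beside Atrx and Bptf, the raised members with the smallest adjusted p were Chd6 (0.50, adjusted p = 0.00255), a CHD-family helicase, and Smarca4 (0.36, adjusted p = 0.00431), the BRG1 ATPase of SWI/SNF complexes. Smarca5, the ISWI ATPase, had -0.18 (adjusted p = 0.00432). Chd6, Smarca4 and Smarca5 had 0.16, 0.10 and -0.12 with the 5 arrays left out. Among DNA methylation genes 3 of 31 probesets were called (9.68%). The called probesets of Dnmt3a and Dnmt3b, both de novo methyltransferases, had log2 fold changes of 0.59 (adjusted p = 0.00511) and -0.21 (adjusted p = 0.0066). That of Tet1, a methylcytosine dioxygenase, had 0.29 (adjusted p = 0.0066). Only that of Dnmt3b was the brightest probeset of its gene. At the brightest probesets 0 of 12 genes were called higher and 1 lower, with a median of -0.05 and 3 above 0. Opposite movement of the genes was therefore not shown. Leaving out mouse numbers 57 to 62 gave 0.13 for Dnmt3a, 0.12 for Tet1 and -0.22 for Dnmt3b. Histone acetyltransferases had 2 of 32 probesets called (6.25%), of Crebbp (0.71, or 0.22 without the 5 arrays) and Kat6a (0.52, or 0.11), and histone deacetylases and sirtuins 0 of 28. The probesets of Crebbp and Kat6a were not the brightest of their genes.

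Lists of RNA, translation and transport genes were counted likewise. Nuclear long noncoding RNAs had 5 of 52 probesets called higher (9.62%), from Malat1, Snhg14 (0.78, adjusted p = 0.00348), the host transcript of the imprinted Prader-Willi region, and 9530059O14Rik (0.49, adjusted p = 0.00777). Snhg14 and 9530059O14Rik had 0.33 and 0.13 with the 5 arrays left out. Splicing factor genes had 7 higher and 2 lower of 355 (2.54%), and Rbm26 had 1 probeset in each direction. Zinc finger genes had 15 higher and 3 lower of 691 (2.6%), and translation factors 4 higher of 153 (2.61%). Kinesin motor genes had 5 higher of 95 (5.26%), with Kif5b, a motor of anterograde axonal transport, at 0.79 (adjusted p = 0.00195) and 0.29, or 0.30 and 0.14 without the 5 arrays.

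Lists of synaptic and channel genes held 1 or 2 called probesets each. Homer1, a postsynaptic scaffold that binds metabotropic glutamate receptors, rose at 2 probesets, by 0.69 (SE 0.13, adjusted p = 0.00206) and 0.74 (SE 0.15, adjusted p = 0.00362). These were 0.45 and 0.46 without mouse numbers 57 to 62. Also raised were Gria3, an AMPA receptor subunit (0.42), Gabrb2, a GABA-A receptor subunit (0.28), Kcnd2, the A-type potassium channel Kv4.2 (0.65), Scn1a, a sodium channel of interneurons (0.76), Cacnb4, a calcium channel subunit (0.64), the neuroligins Nlgn1 (0.37) and Nlgn3 (0.24), and the vesicle genes Syt1 (0.58) and Syn2 (0.64). With the 5 arrays left out the log2 fold changes were 0.14 for Gria3, 0.14 for Gabrb2, 0.27 for Kcnd2, 0.35 for Scn1a, 0.18 for Cacnb4, 0.17 for Nlgn1, 0.13 for Nlgn3, 0.17 for Syt1 and 0.11 for Syn2. Counting by list, called probesets were 2 of 19 for metabotropic glutamate receptors with Homer1 (10.5%) and 2 of 32 for postsynaptic scaffolds (6.25%). Synaptic vesicle genes had 2 of 54 (3.7%), GABA-A receptor subunits 1 of 26 (3.85%) and ionotropic glutamate receptor subunits 1 of 31 (3.23%). Sodium channels had 1 of 30 (3.33%), calcium channels 1 of 43 (2.33%) and potassium channels 1 of 157 (0.637%). Over all probesets tested the share was 1.23%, from which counts of 1 cannot be told. Of the genes named here, only Nlgn1 was called at its brightest probeset.

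The stress, clock and metabolic lists named here held 2 called probesets at most, beside 1.23% of all probesets tested. Among immediate early genes the called probesets were those of Homer1 alone (2 of 33, 6.06%). Glucocorticoid-responsive genes had 1 of 48 (2.08%, Zbtb16, 0.47) and clock genes 1 of 34 (2.94%, Arntl, 0.38). Chaperones had 1 of 41 (2.44%) and endoplasmic reticulum stress genes 1 of 45 (2.22%). Interferon and inflammation genes had 0 of 17, neuropeptide and stress peptide genes 0 of 31 and ethanol metabolism genes 0 of 25. With so few probesets, counts of 0 or 1 cannot be told from the share over all probesets. Cytosolic ribosomal protein genes had 0 of 101 and a median log2 fold change of 0.00, respiratory complex I genes 0 of 87 and a median of 0.02, and proteasome genes 0 of 78 and a median of -0.01.

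Markers of the principal neurons lay on opposite sides of 0, with none called. CA1 markers had a median log2 fold change of 0.30, with 7 of 7 above 0, while dentate granule markers had -0.24, with 1 of 12 above 0, and CA3 markers -0.30, with 1 of 8 above 0. Fibcd1 (CA1) had log2 values of 7.60, 9.19 and 9.96 in the CIE Drinking group and 7.83, 8.53 and 9.54 in the Air Drinking group, a difference of 0.43 (SE 0.29, adjusted p = 0.461). Stxbp6 (dentate) had 11.82, 12.51 and 12.77 against 12.33, 12.54 and 12.91, a difference of -0.23 (SE 0.11, adjusted p = 0.246). Both genes overlapped broadly between groups. The medians were 0.40, -0.25 and -0.35 for CA1, dentate and CA3 without mouse numbers 57 to 62, and -0.01, -0.08 and 0.14 in nondrinking mice. Whether the dissected share of CA1, CA3 and dentate tissue differed, and its part in other changes, was not tested.

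**Figure D4:**
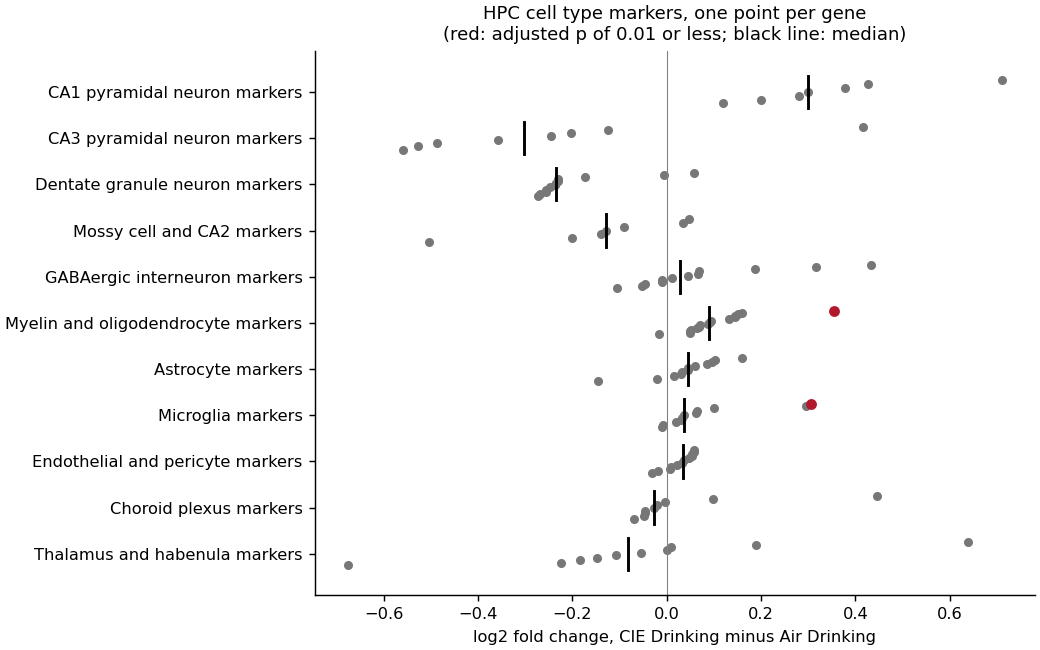
Log2 fold change (CIE Drinking minus Air Drinking) of cell type marker genes in the HPC, one point per gene at its brightest probeset, with the list median as a black line and genes at an adjusted p of 0.01 or less in red. CA1 markers lie above 0 (median 0.30) and dentate and CA3 markers mostly below (-0.24 and -0.30), while the red points are Gjc3 (0.36) and Cx3cr1 (0.30).

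Glial markers lay slightly above 0, as did endothelial and pericyte markers, with 10 of 12 above 0 and a median of 0.03. Myelin and oligodendrocyte markers had a median of 0.09 with 15 of 16 above 0, and 3 of 38 probesets were called (7.89%), of the oligodendrocyte connexin Gjc3 (0.35 and 0.36) and of Mbp, myelin basic protein (0.48). Gjc3 had 0.25 and 0.16 and Mbp 0.22 with the 5 arrays left out. The called probeset of Mbp was not the brightest of its gene. Microglia markers had 9 of 11 above 0 and a median of 0.04, and Cx3cr1, the fractalkine receptor, rose by 0.30 (SE 0.07, adjusted p = 0.00746), or had 0.18 without the 5 arrays. Slc1a2, the astrocytic glutamate transporter GLT-1, rose at 1 probeset by 0.68 (SE 0.15, adjusted p = 0.00545), or had 0.19 without the 5 arrays, with a list median of 0.05 for astrocytes. Interneuron markers had a median of 0.03 and 1 called probeset of 20 (5%), that of Gad2, beside 1.23% of all probesets tested. Thalamus, choroid plexus, neocortical, endothelial, blood and neurogenesis markers had 0 called probesets, with medians of -0.08 to 0.03. Striatal markers had 2 of 23 (8.7%), both of Pde10a (0.33 and 0.37).

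Vapor without drinking gave no calls, and the difference from drinking mice was tested itself. In CIE NonDrinking against Air NonDrinking mice, LIMMA called 0 of 44463 probesets, and 4361 had an unadjusted p under 0.05. The vapor difference of drinking mice minus that of nondrinking mice was called for 0 probesets, with 3970 at an unadjusted p under 0.05, so that the response was not shown to depend on drinking. That count was 963, 940 of them higher, without Air Drinking mouse numbers 24 to 32, and 0 without 57 to 62. The paper states that at sacrifice the drinking groups had been without ethanol for hours and the NonDrinking groups for days. Drinking and time since ethanol therefore cannot be told apart in this comparison. The raised probesets had a median log2 fold change of 0.18 and the lowered ones of -0.04 in nondrinking mice. Among named genes, 9630013A20Rik was at -0.84 (SE 0.16, adjusted p = 0.0824) in nondrinking mice, beside -0.63 in drinking mice. Its log2 values were 4.77, 5.41 and 6.63 in the CIE NonDrinking arrays and 5.76, 6.28 and 6.43 in the Air NonDrinking arrays. Atf3, Spx and Araf had 0.03, -0.01 and -0.02, and Bptf, Atrx and Atp2b2 had 0.50, 0.52 and 0.45, none past the threshold. Over all named rises the values ran from -0.08 (A930009L07Rik) to 0.52 (Atrx) in nondrinking mice. Apart from 9630013A20Rik, the named falls ran from -0.12 (Rsrc1) to 0.15 (Rgn).

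The same contrast was read in the CeA, the BNST, the NAC and the PFC, on arrays that come largely from the same mice. LIMMA called 78 probesets (0.177%) in the CeA, 419 (0.943%) in the BNST, 127 (0.282%) in the NAC and 840 (1.87%) in the PFC. When mouse numbers 57 to 62 were left out, with 4 to 6 Air Drinking arrays fewer, these counts became 0, 0, 0 and 181. The 480 raised HPC probesets with a value in every region were averaged in each array. In the HPC this mean was 8.27, 8.31 and 8.40 in the CIE Drinking group, 8.08, 8.11 and 8.26 in Air Drinking mouse numbers 24 to 32, and 7.32, 7.52 and 7.63 in 57 to 62.

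Arrays of mouse numbers 57 to 62 were also low for these probesets beside the other Air Drinking arrays in the NAC, CeA and BNST. These regions had no part in choosing the probesets. In the NAC the 5 arrays lay between 7.62 and 7.81 and the other 7 Air Drinking arrays between 8.11 and 8.32. In the CeA, 4 arrays lay between 7.36 and 7.46 and the other 8 between 7.82 and 7.99. In the BNST the 5 arrays had a median of 7.75 and the other 7 one of 8.18, and the ranges met near 7.80. In the PFC there was no such gap, with 6 arrays at 8.27 to 8.33 and the other 5 at 7.97 to 8.36. Some nondrinking arrays reached as low as mouse numbers 57 to 62 in the CeA, NAC and BNST. The lowest Air NonDrinking values there were 7.31, 7.74 and 7.76. The lowest CIE NonDrinking values were 7.21, 7.87 and 7.61. In the HPC the lowest value of both nondrinking groups was 7.66, above mouse numbers 57 to 62.

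**Figure D5:**
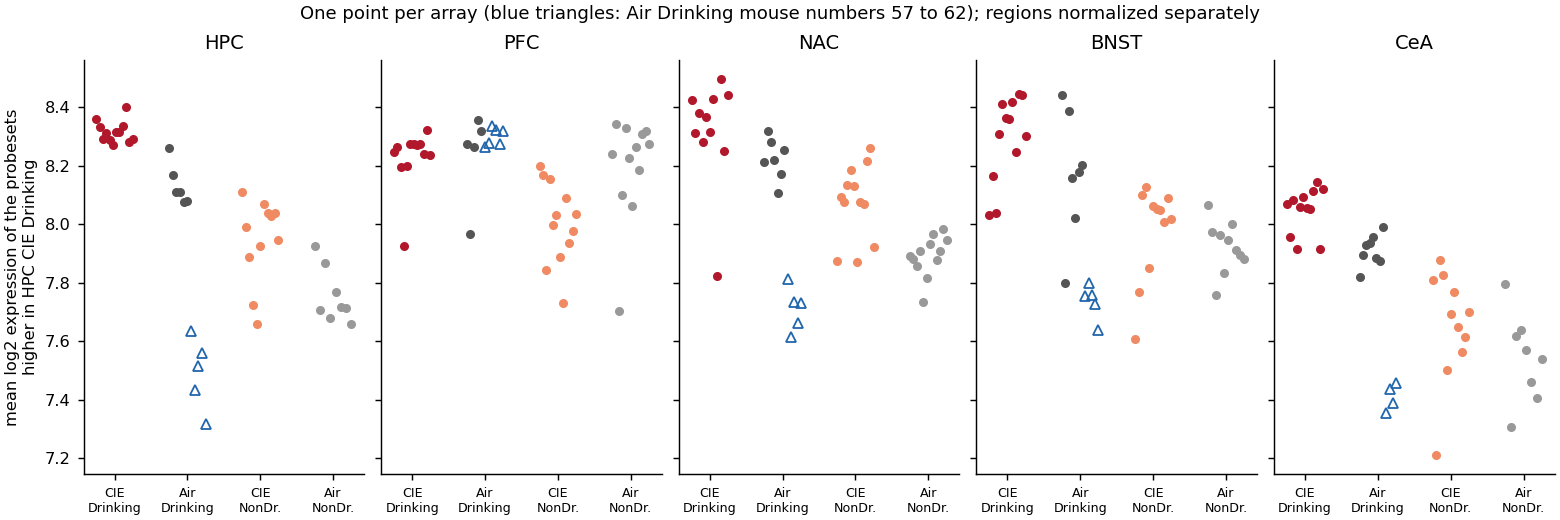
Mean log2 expression per array of the 480 probesets that were higher in HPC CIE Drinking mice and had a value in all regions, by region and treatment group, with Air Drinking mouse numbers 57 to 62 as blue triangles. The triangles lie below the other Air Drinking arrays in the HPC, NAC and CeA, meet them in the BNST (7.80), and lie among them in the PFC (8.27 to 8.33).

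Tests of the difference between regions separated the HPC from the PFC. The log2 fold change in the HPC minus that in the PFC was called for 954 of 43893 probesets (2.17%), and for 205 of the 480 raised and 20 of the 68 lowered HPC probesets, which the HPC arrays had selected. For the NAC, BNST and CeA the counts were 0, 28 and 28 (0, 0.0638 and 0.0638%), with 4153 probesets at an unadjusted p under 0.05 for the NAC. Without mouse numbers 57 to 62 in any region, 16 probesets were called against the PFC, 0 against the NAC, 0 against the BNST and 24 against the CeA. Wdfy3 had log2 fold changes of 0.86 in the HPC and -0.48 in the PFC, and 0.34 to 0.56 in the other regions. Gad2 had 0.79 in the HPC, 0.83 in the NAC, 0.66 in the BNST, 0.02 in the PFC and -0.09 in the CeA. For Gad2 the difference of the HPC from the PFC (adjusted p = 0.0736 in LIMMA) and from the CeA (adjusted p = 0.103) did not pass.

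9630013A20Rik was lower in CIE Drinking mice in all 5 regions. Beside the HPC, the BNST passed, at -1.12 (SE 0.21, adjusted p = 0.00193). The NAC had -0.85 (SE 0.19, adjusted p = 0.0112), the CeA -0.86 (SE 0.20, adjusted p = 0.0242) and the PFC -0.36 (SE 0.11, adjusted p = 0.0405), past the threshold in none. Its median log2 value was 6.42 against 7.37 in the NAC and 5.47 against 6.66 in the BNST, with 11 of 11 and 12 of 12 CIE Drinking arrays below the Air Drinking mean. In the CeA it was 4.99 against 6.05 and in the PFC 4.27 against 4.79, both low levels, with 10 of 12 arrays in each. The differences in these 4 regions were -0.29 to -1.04, none past the threshold, without mouse numbers 57 to 62. Atf3, Spx and Araf, which fell in the HPC, had log2 fold changes of -0.13 to 0.13 in the other regions. In tests of the difference from the HPC with all arrays, Atf3 passed against the PFC alone (adjusted p = 0.0024 in LIMMA). Spx and Araf passed against no region. The remaining named falls lay between -0.25 (Dct in the NAC) and 0.15 (Rgn in the BNST) in the other regions.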

How the data were processed

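Total RNA was labelled with biotin and hybridized to Affymetrix mouse arrays. The authors summarized probes by RMA (version not given in the sources used here), quantile-normalized each region, removed effects of hybridization batch with ComBat and deposited log2 expression values. Labels do not name the batch, so no value could be computed within one. Groups and mouse numbers were taken from the labels. Of 45037 probesets, 574 without a value in the HPC were left out. Symbols came from the platform annotation, updated through RefSeq. 34945 probesets had 1 symbol, 932 several and 9160 none.

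limma 3.58.1 in R 4.3.3 fitted 1 mean per group to the 4 HPC groups, with eBayes and Benjamini-Hochberg adjustment over all probesets at 0.01, two-sided. Region differences were fitted over all 5 regions. The fit was run on simulated data that had the same spread in all groups. That run could not examine the assumption of equal spread. The number of arrays limits the precision. The members and gene lists were chosen with earlier results of these data known. Named genes were the 15 largest rises and 10 largest falls with a single symbol, the 8 genes with most called probesets, and up to 4 called members of a list. List genes were represented by the probeset with the highest mean. Exceptions are named in the text as seen first. Figures were drawn with matplotlib 3.10.9 in Python 3.11.15.

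Alternatives were leaving out dim probesets (the lowest 40%), only the groups compared, trend and robust variances, array weights, renewed quantile normalization, median centring, single arrays left out and, in region differences, a replicate block by mouse number (statmod 1.5.0). Leaving out mouse numbers 57 to 62 or 24 to 32 was added after the data were seen.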

Additional observations from a re-analysis of the deposited data

Results flagged for a closer look

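Among the 8 Air NonDrinking HPC arrays, mouse number 45 stood above the others for Tlk1, at a log2 value of 7.80 against 7.24 to 7.49, and mouse number 52 stood below them for 9630013A20Rik, at 5.76 against 6.18 to 6.43. About 1 in 20 groups would show such a gap by chance, and 30 genes were looked at.

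The vapor difference in drinking mice was larger in the HPC than in the PFC, by a test of the difference itself at an adjusted p of 0.01 in LIMMA, for 11 of the named rises. The same HPC arrays had chosen these genes, which favours a larger difference in the HPC, so the count is a description. The HPC log2 fold change minus that of the PFC was 1.34 for Wdfy3, 1.00 for Rufy2, 0.99 for Sorl1, 0.99 for Tlk1, 0.98 for Bptf, 0.96 for Tbl1x, 0.93 for Mbnl1, 0.90 for Cacna2d1, 0.78 for Pcmtd1, 0.63 for Spred1 and 0.54 for Fam193a. For the falls it was -0.38 for Atf3, -0.37 for Bora, -0.35 for Atg5 and -0.32 for Rsrc1. Without mouse numbers 57 to 62 in any region none of these 15 passed, at adjusted p-values of 0.0349 (Wdfy3) to 0.851 (Mbnl1). The differences were then 0.88 for Wdfy3, 0.38 for Rufy2, 0.63 for Sorl1, 0.49 for Tlk1, 0.38 for Bptf, 0.64 for Tbl1x, 0.22 for Mbnl1, 0.39 for Cacna2d1, 0.28 for Pcmtd1, 0.23 for Spred1 and 0.24 for Fam193a, and -0.38 for Atf3, -0.35 for Bora, -0.24 for Atg5 and -0.24 for Rsrc1.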

How the results depend on the processing

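With the 549 probesets called between CIE Drinking and Air Drinking mice set against 0.05 as the threshold, 1759 were called, and array quality weights gave 1108. A fit of both drinking groups alone called 0, and without Air Drinking mouse numbers 57 to 62, 0, or 1 when only the groups compared were in the fit, a probeset of Krt24 with a log2 fold change of 0.30. Without mouse numbers 24 to 32, 3041 were called. Leaving out single arrays gave 167 (Air Drinking 59) to 1014 (Air Drinking 24), with 171, 200, 226 and 293 without Air Drinking 60, 62, 61 and 57, 873 without Air Drinking 25, and 315 and 361 without CIE Drinking 17 and 1. The other settings gave 523 to 643. No named gene changed direction in any setting run. All 30 missed the threshold without mouse numbers 57 to 62 (adjusted p of 0.543 to 0.681) and with only the groups compared (0.0122 to 0.0394).

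The interaction gave 0 in the other settings, 963 without mouse numbers 24 to 32, and 0 to 1 without single arrays. Without mouse numbers 57 to 62, the region differences fell to 16 (PFC) and 0 (BNST), and the 28 of the CeA became 24, of which 1 was higher and 23 lower. The replicate block paired arrays of 1 mouse across regions, as the labels give the number, with a consensus correlation of 0.0146. It gave 1030 (PFC), 0 (NAC), 32 (BNST) and 36 (CeA) and moved no count by over 1.5 times. Within the HPC no paired analysis was possible because each mouse belongs to 1 group. Why 57 to 62 stand apart was not tested.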
